A study of Glycine max with 12 samples.

Results

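The comparison described here sets soybean leaves sprayed with melatonin alone (MT) against leaves of the stressed control, and asks which genes the spray moved and which families they belong to. Its members are the 3 MT and the 3 control libraries, 6 of the 12 libraries of the series, chosen by the labelled treatment and not by any measured value. Of 46446 genes in the table, 28260 reached 1 FPKM (fragments counted per transcript length and library size) in at least 3 of the 12 libraries and were tested.

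The plants were wild type soybean of the cultivar HN95, grown in pots of peat and vermiculite to which a mixed saline-alkali solution had been given, with NaCl and Na2CO3 at 40 mM each and NaHCO3 and Na2SO4 at 320 mM each. MT plants received 300 µM melatonin on the leaves, and functional leaves were taken 7 days after spraying. Control plants had the same stress without melatonin. The labels do not say if a mock spray was used. The remaining groups received 200 mg/L nano-SiO2 (silica nanoparticles) with 300 µM melatonin, or nano-SiO2 alone, and every group was stressed, so no unstressed leaf enters any comparison. No label ties the 3 libraries of a group, named as biological replicates, to different plants. The p-values therefore reflect only how far these libraries scatter, and that scatter may be technical.

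Melatonin is an indoleamine made from tryptophan, and plants produce it as well as take it up. It is known in plants for scavenging reactive oxygen species and for altering antioxidant enzymes under salt and alkali stress. Alkaline soil lowers the availability of iron, phosphate and several other nutrients, and the genes of nitrate, phosphate, sulfate and metal nutrition respond to the supply of each.

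Leaf markers were present throughout: the 28 tested genes of antenna, Rubisco and related leaf proteins summed to between 43837 and 62688 FPKM in MT libraries and between 46498 and 74762 FPKM in control libraries. The libraries of both groups differed in relative depth by 0.853 to 1.11 times the mean, as read from the steps between low values, and pairwise correlations of log2(FPKM + 1) were 0.97 to 0.985 within MT, 0.973 to 0.992 within the control and 0.949 to 0.973 between them. On the first principal component of all 12 libraries, MT replicates 1, 2 and 3 lay at -26.6, -30.1 and 8.03, and control replicates 1, 2 and 3 at -27.8, 17.2 and 24.7. On this component control 1 therefore lay near MT 1 and MT 2, and MT 3 between these and the other control libraries. The second component kept the groups apart, with MT 1, 2 and 3 at 22.8, 9.98 and 39.5. Control 1, 2 and 3 lay there at -33.1, -15.4 and -11.6. The counts below are given without control 1 and MT 3 wherever that moved them by more than 1.5 times.

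MT differed from the control in 948 of the 28260 tested genes (3.35%) at a Benjamini-Hochberg adjusted p under 0.05 (limma on log2(FPKM + 1), a gene past this threshold being referred to as called). Of these, 470 (1.66% of the tested genes) were higher in MT and 478 (1.69%) were lower. This near-even split moved with the setting: it was 673 higher and 468 lower with median-ratio scaling, 639 and 483 with quantile normalization, 230 and 120 without control 2, 257 and 134 without control 3, 243 and 146 without MT 1, and 356 and 646 without control 1 and MT 3 together. The changes were mostly moderate, with a median log2 difference of 0.888 among the higher and -0.772 among the lower genes, against -0.0491 over all tested genes. The absolute log2 difference reached 1 in 296 called genes (180 higher and 116 lower) and 2 in 33 (27 higher and 6 lower). In all 948 called genes the 3 MT libraries lay wholly above or wholly below the 3 control libraries, which was the case for 23.2% of all tested genes. The count without control 1 was 747, without control 2 it was 350, without control 3 it was 391, without MT 1 it was 389, without MT 2 it was 477, without MT 3 it was 754, and without control 1 and MT 3 together it was 1002. The call held in all of the 12 fits that left out 1 library for 281 genes (183 higher and 98 lower). A gene given with values below is one of these unless the text says otherwise.

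Of 87 gene families read from the descriptions, 75 had at least 1 called member: in 22 the called members were all higher, in 26 all lower, and in 27 both. The called genes without a functional name numbered 257 (27.1% of the called genes, against 30.7% of the tested genes). Among the 10 largest rises they include Glyma.02G282300, Glyma.19G231100, Glyma.05G011200, Glyma.17G119000 and Glyma.14G032000 (log2 2.95 to 3.85), and among the 10 largest falls Glyma.10G006850 (log2 -1.83). Glyma.19G231100 stood at 0 FPKM outside MT, so it was tested through the MT libraries alone. Whether these calls held in every fit is not given here. Shares of called members below are to be read against the 3.35% of all tested genes. The lists were chosen with earlier results of these data known, so these shares describe the lists and are not a test of them.

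**Figure D1:**
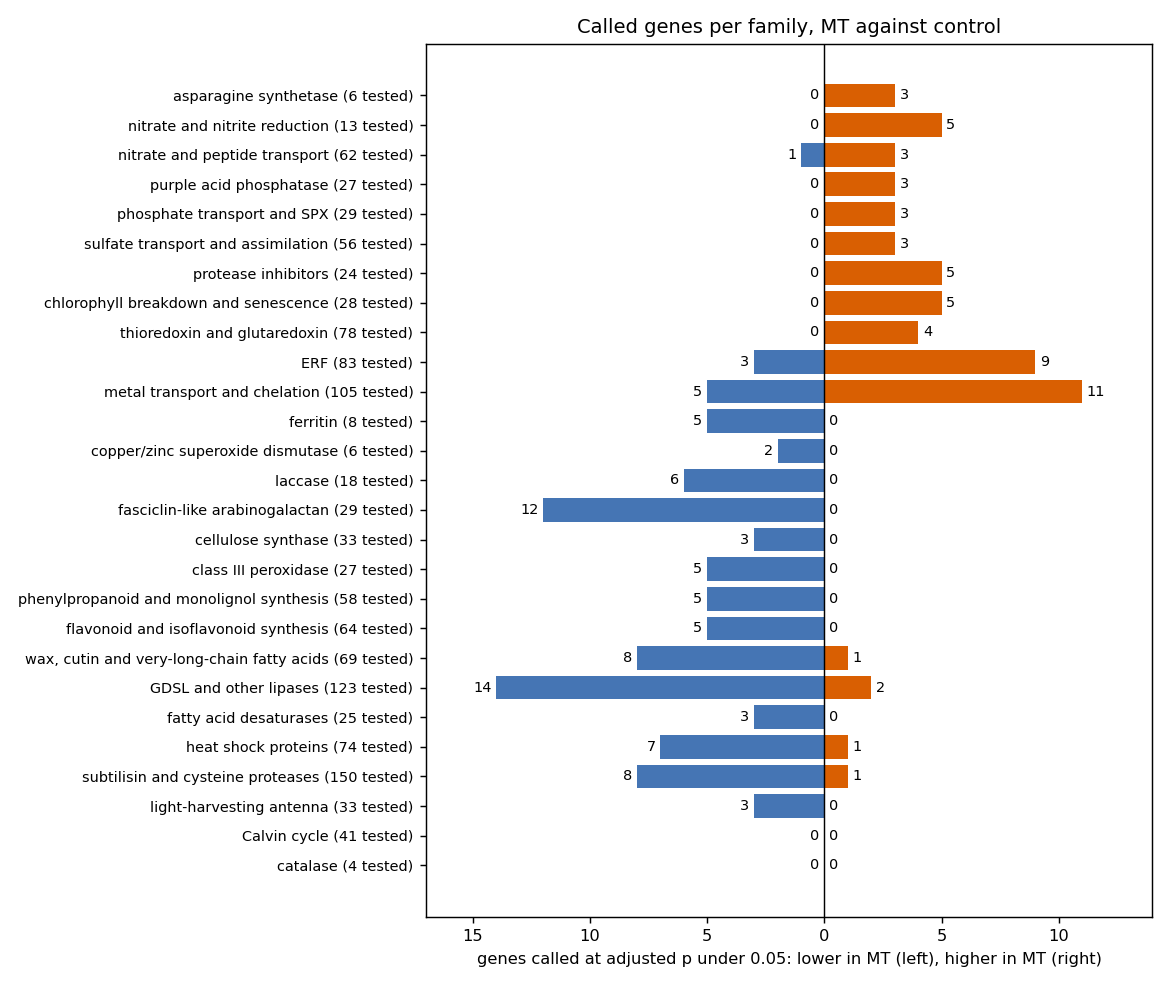
Number of called genes per family in MT against control for a selection of the 87 families, lower in MT to the left of 0 and higher to the right, with the number of tested members in brackets. Families not drawn include receptor kinases (8 higher and 11 lower), ubiquitin ligases (12 higher and 4 lower) and cytochromes P450 (4 higher and 8 lower). Nitrate reduction (5 of 13) and asparagine synthetase (3 of 6) lie wholly on the right, and ferritin (5 of 8), laccase (6 of 18) and fasciclin-like arabinogalactan proteins (12 of 29) wholly on the left.

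The 2 largest rises among all called genes were in nitrogen metabolism. Asparagine synthetase makes asparagine, a nitrogen-rich amide in which legumes transport and store nitrogen, and 3 of its 6 tested genes rose while the other 3 did not pass the test (median log2 1.65). Glyma.14G195000 stood at 120, 111 and 106 FPKM in MT, against 0.560, 0.505 and 1.09 FPKM in the control. The difference was 6.05 on the log2 scale (SE 0.35, adjusted p = 1.37e-06), the largest of all called genes. Glyma.02G228100 stood at 133, 129 and 106 FPKM in MT, against 0.997, 1.30 and 0.811 FPKM in the control, a difference of 5.93 (SE 0.23, adjusted p = 4.35e-08). In both genes every control library was near 1 FPKM and every MT library above 100 FPKM. Glyma.11G171400 had 8.53, 8.72 and 9.97 FPKM in MT and 0, 0.0134 and 0 FPKM in the control, so it was close to silent without the spray. Glyma.17G238200, described as an isoaspartyl peptidase/L-asparaginase, the kind of enzyme that breaks asparagine down, fell to 4.55, 3.32 and 3.04 FPKM in MT, against 8.99, 8.34 and 7.18 FPKM in the control (log2 -0.99, SE 0.15, adjusted p = 0.00342). The far more abundant L-asparaginase Glyma.14G086300 moved the other way, at 397, 393 and 451 FPKM in MT and 273, 282 and 292 FPKM in the control. Its call (log2 0.55, SE 0.13, adjusted p = 0.0398) was lost without any 1 of the 6 MT and control libraries. The list of amino acid breakdown, which holds both, had 2 of 69 genes higher and 2 lower, and the count of 4 was 1 without control 2, control 3, MT 1 or MT 2.

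Several enzymes that reduce nitrate to ammonium rose. Of 13 tested genes of nitrate and nitrite reduction, 5 rose and none fell (38.5% called, median log2 0.34). Nitrate reductase catalyses the first step, and Glyma.02G132100 stood at 49.8, 55.0 and 53.3 FPKM in MT against 17.8, 17.2 and 15.7 FPKM in the control (log2 1.58, SE 0.12, adjusted p = 6.58e-06). The 3 libraries of each group were within a narrow band, far apart from those of the other group. The nitrite reductase Glyma.07G212800, which takes nitrite on to ammonium in the chloroplast, reached 50.6, 53.5 and 50.1 FPKM in MT, against 23.8, 23.1 and 23.5 FPKM in the control (log2 1.10, SE 0.12, adjusted p = 0.000276). Glyma.08G150800, the methyltransferase that makes the siroheme cofactor of nitrite reductase, stood at 10.1, 14.2 and 12.5 FPKM in MT and at 4.34, 4.88 and 4.06 FPKM in the control (log2 1.28, SE 0.13, adjusted p = 0.000135). The nitrate reductase Glyma.13G084000 rose by 0.87 on the log2 scale (SE 0.14, adjusted p = 0.00398). The most abundant nitrate reductase, Glyma.06G109200, was named in addition to the genes picked by rule. It had 300, 329 and 264 FPKM in MT and 197, 188 and 173 FPKM in the control. Its call (log2 0.68, SE 0.12, adjusted p = 0.00833) was lost without control 3 (adjusted p = 0.053). None of the 17 genes of glutamine and glutamate synthesis or the 6 ammonium transporters was called by limma, with 5 and 0 of them at an unadjusted p under 0.05. The most abundant glutamine synthetase, Glyma.13G210800, stood at 951, 798 and 689 FPKM in MT and 707, 645 and 584 FPKM in the control (adjusted p = 0.477).

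Around these enzymes, regulators and transporters known from the nitrate response were looked up after their values were seen. Their counts therefore carry no weight of their own either. Among 17 tested genes described as HHO, NLP or LBD37 to LBD41 transcription factors, 8 rose and none fell. The count was 4 without control 2, 5 without control 3, 5 without MT 1 and 5 without MT 2. In Arabidopsis, LBD37 to LBD39 repress nitrogen genes when nitrogen is ample, and HHO proteins are nitrate-induced repressors. The LBD38 gene Glyma.11G049300 stood at 29.8, 38.8 and 32.4 FPKM in MT and at 10.9, 8.23 and 7.87 FPKM in the control (log2 1.80, SE 0.14, adjusted p = 1.12e-05). LBD41 (Glyma.18G297100) rose by 1.39 and HHO3 (Glyma.10G204200) by 0.81 on the log2 scale, with adjusted p-values of 0.000734 and 0.00581. Both tested genes of non-symbiotic hemoglobin, a heme protein that removes nitric oxide, rose. Glyma.11G121800 reached 12.9, 12.8 and 15.6 FPKM in MT against 2.09, 2.49 and 2.04 FPKM in the control (log2 2.20, SE 0.15, adjusted p = 3.67e-06). The second gene, Glyma.11G121700, stood at 62.2, 61.6 and 107 FPKM in MT, with MT 3 well above the other two, and at 27.3, 27.4 and 26.8 FPKM in the control (log2 1.42, SE 0.22, adjusted p = 0.00398). Of the anion channel list, 3 of 29 genes rose, among them the CLC-b genes Glyma.16G057600 (log2 0.97, adjusted p = 0.0047) and Glyma.19G089800 (log2 1.03, adjusted p = 0.00481). CLC-b is a nitrate exchanger of the vacuole in Arabidopsis.

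The 4 largest falls among all called genes were ferritins. Ferritins are plastid protein shells that hold iron, and all 8 tested genes were lower in MT on average, 5 of them called (62.5%, median log2 -1.91). Ferritin-2, Glyma.01G124500, stood at 8.24, 11.6 and 9.74 FPKM in MT, against 108, 87.7 and 96.2 FPKM in the control (log2 -3.19, SE 0.15, adjusted p = 1.43e-07). Ferritin-1, Glyma.18G205800, stood at 6.49, 8.68 and 10.8 FPKM in MT, against 79.7, 58.5 and 75.2 FPKM in the control (log2 -2.91, SE 0.17, adjusted p = 1.20e-06). In both genes the MT libraries lay far below the lowest control library. Glyma.03G050100 and Glyma.07G155200 fell by 2.89 and 2.82 on the log2 scale (adjusted p = 4.18e-07 and 6.45e-07), and ferritin-4, Glyma.14G056800, which was picked after its values were seen, fell by 0.99 (adjusted p = 0.00233). These are close gene copies, and no source used here says how reads shared between copies were divided.

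Superoxide dismutases, which turn superoxide into hydrogen peroxide, moved in both directions. The iron form rose in 2 of 5 tested genes, and the other 3 were lower in MT on average without being called (median log2 -0.027). Without MT 3 the count of called genes was 3. Glyma.20G196900 stood at 33.4, 26.05 and 40.3 FPKM in MT, against 0.535, 0.301 and 0.473 FPKM in the control (log2 4.56, SE 0.21, adjusted p = 1.43e-07). Glyma.10G193500 had 5.22, 4.77 and 6.16 FPKM in MT and 0, 0.0690 and 0.0609 FPKM in the control, where it was thus almost absent. In nano-SiO2 alone, also without melatonin, this gene stood at 4.35, 3.01 and 5.40 FPKM. The list of the copper/zinc form fell in 2 of 6 tested genes, and in 4 without MT 3. The chloroplast enzyme Glyma.11G192700 stood at 75.3, 88.0 and 62.3 FPKM in MT and at 233, 163 and 140 FPKM in the control (log2 -1.22, SE 0.20, adjusted p = 0.00473). The copper chaperone that loads this enzyme, Glyma.05G055000, stood at 14.3, 11.6 and 18.7 FPKM in MT and at 55.0, 61.3 and 56.9 FPKM in the control (log2 -1.91, SE 0.15, adjusted p = 1.19e-05). None of the 4 catalase genes and none of the 32 genes of the ascorbate-glutathione cycle was called by limma, with 0 and 7 at an unadjusted p under 0.05. The most abundant catalase, Glyma.06G017900, stood at 949, 814 and 630 FPKM in MT and 745, 657 and 616 FPKM in the control, so the groups overlapped.

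Among genes of metal transport and chelation, 11 of 105 rose and 5 fell, and the count of 16 was 10 without MT 1 and 10 without MT 2. The genes that rose include metal transporters. DMT1, Glyma.17G165200, a ferrous iron transporter, stood at 4.92, 3.94 and 3.54 FPKM in MT and at 0.246, 0.441 and 0.416 FPKM in the control (log2 1.90, SE 0.19, adjusted p = 0.000102). The metal transporter Nramp6, Glyma.15G003500, stood at 8.46, 11.0 and 10.4 FPKM in MT and at 2.91, 3.62 and 3.41 FPKM in the control (log2 1.34, SE 0.21, adjusted p = 0.0035). Nicotianamine synthase makes the chelator that carries iron, zinc and copper through the plant, and Glyma.03G231200 stood at 12.1, 18.6 and 12.4 FPKM in MT and at 4.14, 4.11 and 4.32 FPKM in the control (log2 1.54, SE 0.21, adjusted p = 0.00133). The genes that fell include a vacuolar iron transporter homolog and both called YSL1 genes, transporters of metal bound to nicotianamine, and they were picked after their values were seen. The vacuolar iron transporter gene Glyma.16G168200 had 3.90, 4.46 and 4.95 FPKM in MT and 9.84, 9.71 and 9.65 FPKM in the control (log2 -0.99, SE 0.12, adjusted p = 0.000635). The YSL1 genes Glyma.20G217400 and Glyma.10G172900 fell by 0.83 and 0.82 on the log2 scale, with adjusted p-values of 0.00342 and 0.00411.

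**Figure D2:**
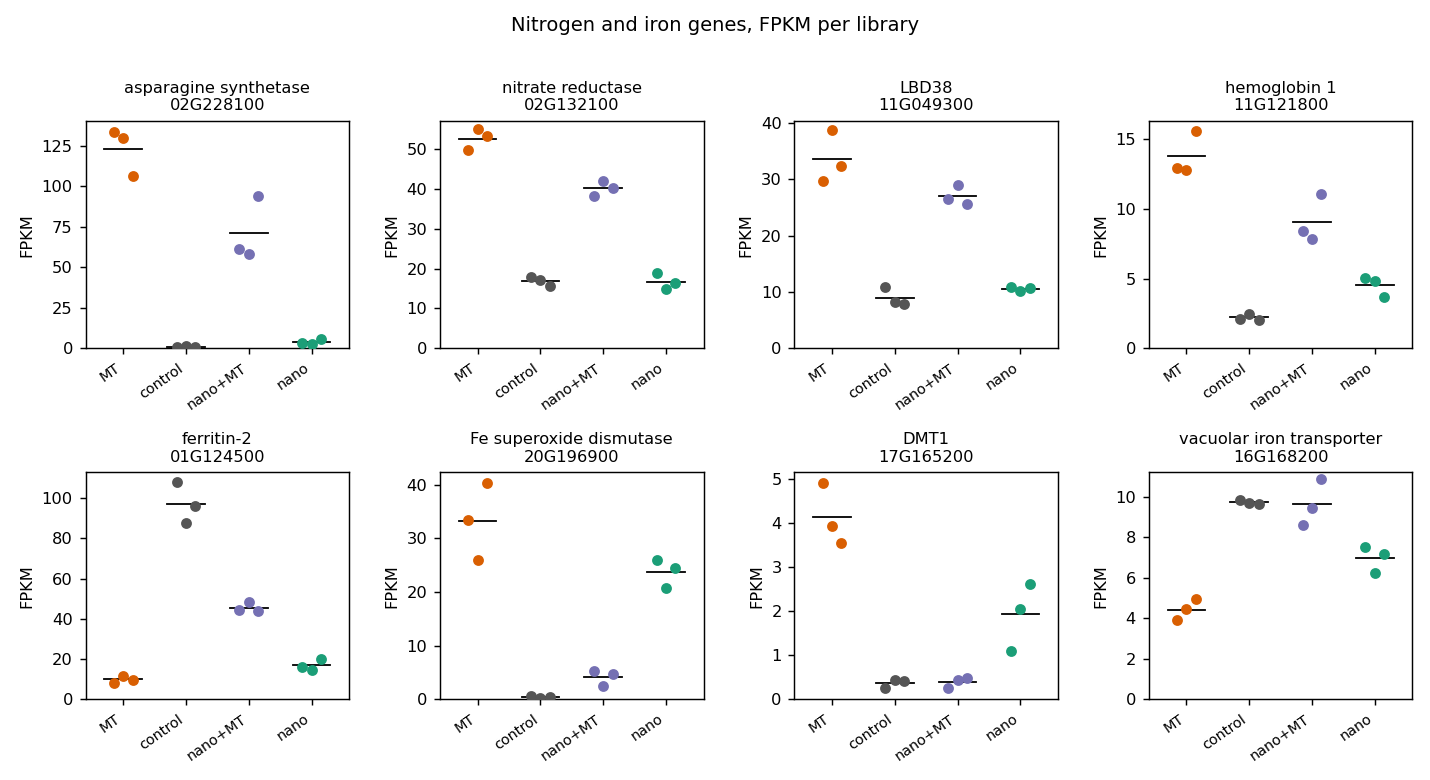
FPKM per library (points) and group mean (line) of 4 nitrogen genes above and 4 iron genes below, with linear axes from 0 and the groups in the order MT, control, nano-SiO2+MT and nano-SiO2. The nitrogen genes are high in both groups with melatonin, whereas ferritin-2 is highest in the control (87.7 to 108 FPKM) and the iron superoxide dismutase is high in MT (26.05 to 40.3 FPKM) and in nano-SiO2 alone.

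Purple acid phosphatases free phosphate from organic compounds. Of 27 tested genes in their list 3 rose, none fell and 24 did not pass the test (median log2 0.035). Among the 3 is ACP1, whose name reads acid phosphatase without the word purple. PAP17, Glyma.08G056400, stood at 8.28, 7.94 and 6.44 FPKM in MT, against 0.621, 0.570 and 0.794 FPKM in the control (log2 2.36, SE 0.21, adjusted p = 5.3e-05). The acid phosphatase ACP1, Glyma.08G195100, stood at 8.64, 7.34 and 9.61 FPKM in MT and at 1.48, 2.01 and 2.18 FPKM in the control (log2 1.72, SE 0.19, adjusted p = 0.000276). In the list of phosphate transport and SPX proteins 3 of 29 rose, and 1 did without MT 1 and without MT 2, whereas 2 rose and 3 fell without control 1 and MT 3 together. Its clearest member, the glycerol-3-phosphate transporter gene Glyma.12G013200, stood at 12.6, 12.2 and 11.0 FPKM in MT and 3.47, 3.34 and 3.55 FPKM in the control (log2 1.54, SE 0.12, adjusted p = 1.6e-05). Enzymes that replace phospholipids by galactolipids and sulfolipids when phosphate is short were looked up after the values were seen. Of 22 tested genes, 4 rose and none fell, with 2 called without control 2, 1 without MT 1 and 1 without MT 2. GDPD1, Glyma.16G052000, which frees glycerol-3-phosphate from lipid head groups, stood at 8.85, 8.35 and 8.97 FPKM in MT and at 1.92, 1.79 and 2.33 FPKM in the control (log2 1.69, SE 0.14, adjusted p = 2.71e-05). The phosphatidate phosphatase PAH2, Glyma.17G242900, rose by 1.11 on the log2 scale (adjusted p = 0.00106). It reached 1 FPKM in the 3 MT libraries alone, so it left the set of tested genes when any of them was left out.

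Few sulfur genes were called. Of 56 genes of sulfate transport and assimilation 3 rose, and 1 did without control 2. The cysteine synthase Glyma.18G234600, which makes cysteine from sulfide, stood at 53.5, 49.5 and 59.4 FPKM in MT and at 30.2, 28.1 and 28.1 FPKM in the control (log2 0.88, SE 0.12, adjusted p = 0.00107). The RESPONSE TO LOW SULFUR 3 gene Glyma.04G225500, of a family that is induced by sulfur shortage in Arabidopsis and chosen here after its values were seen, stood at 40.8, 51.5 and 62.6 FPKM in MT and at 20.7, 21.8 and 23.6 FPKM in the control (log2 1.17, SE 0.16, adjusted p = 0.00147). The MT libraries were spread for this gene, yet the lowest of them lay well above the highest control library.

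**Figure D3:**
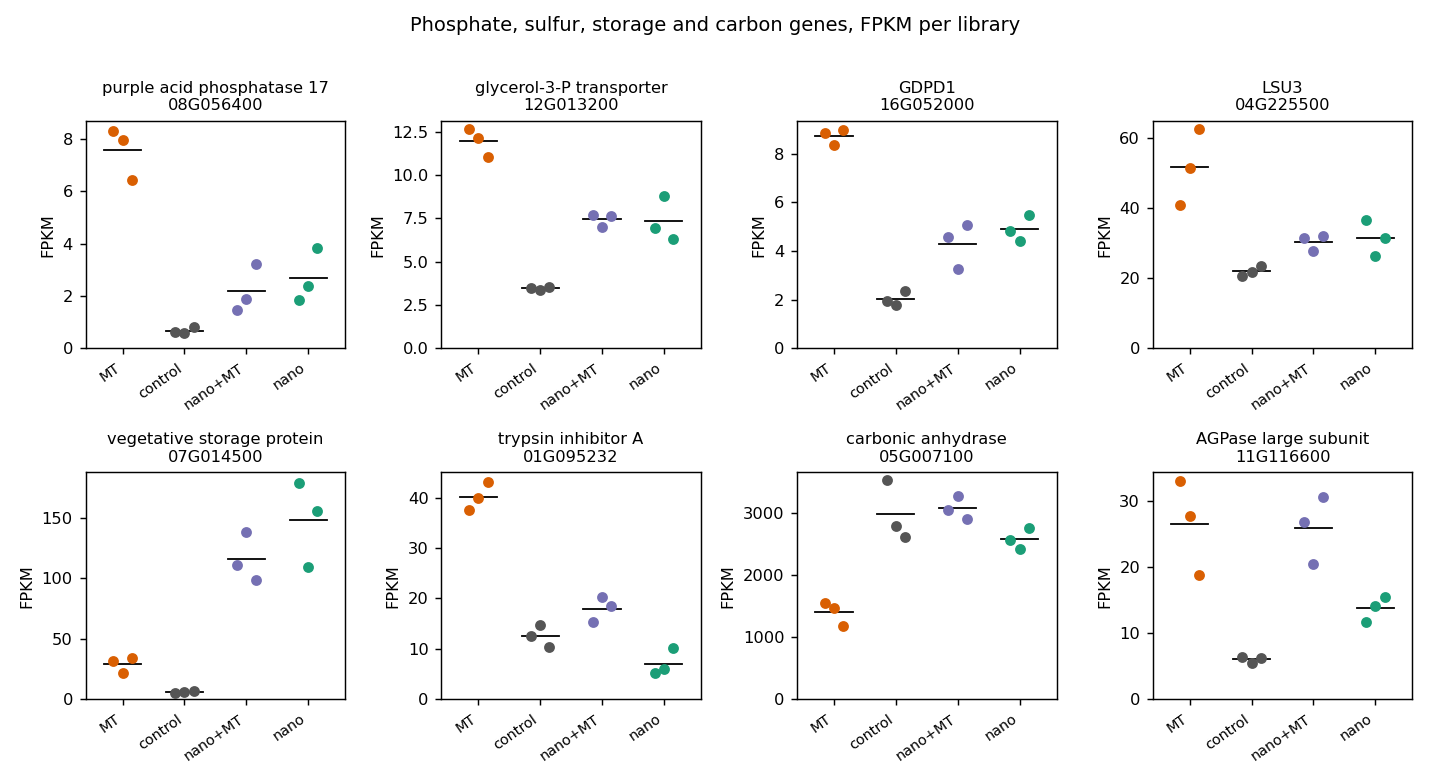
FPKM per library (points) and group mean (line) of genes of phosphate and sulfur nutrition above and of storage, protease inhibition and carbon metabolism below, with linear axes from 0. MT lies above the control in all panels but that of carbonic anhydrase (1175 to 1552 FPKM in MT, 2612 to 3537 FPKM in the control), and the vegetative storage protein is highest in the 2 groups with nano-SiO2.

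In several lists of the secondary cell wall the called genes were all lower in MT. This wall, rich in cellulose, xylan and lignin, is laid down in xylem and fibres, where laccases and peroxidases join lignin units and fasciclin-like arabinogalactan proteins accompany cellulose deposition. Laccases fell in 6 of 18 tested genes (median log2 -0.99), with 3 called without control 2, 3 without control 3 and 3 without MT 1. Laccase-12, Glyma.11G233400, stood at 0.746, 0.947 and 1.13 FPKM in MT and at 6.17, 6.26 and 5.49 FPKM in the control (log2 -1.85, SE 0.29, adjusted p = 0.00398). Laccase-17, Glyma.07G134100, stood at 0.359, 0.624 and 0.754 FPKM in MT and at 2.38, 3.11 and 2.54 FPKM in the control (log2 -1.22, SE 0.21, adjusted p = 0.00609). Of the fasciclin-like arabinogalactan proteins 12 of 29 fell and none rose (41.4% called, median log2 -0.70), with 27 of the 29 lower in MT on average. Their count was 6 without control 2, 5 without control 3, 5 without MT 1, and 7 without control 1 and MT 3 together. The FLA11 gene Glyma.03G180000 stood at 1.23, 1.68 and 1.52 FPKM in MT and at 4.81, 6.16 and 7.59 FPKM in the control (log2 -1.52, SE 0.24, adjusted p = 0.0038). A second FLA11 gene, Glyma.03G179900, stood at 4.11, 5.21 and 5.06 FPKM in MT and 17.4, 17.3 and 20.6 FPKM in the control. Its call (log2 -1.75, adjusted p = 0.00978) was lost without control 3 (adjusted p = 0.0536), without MT 1 (adjusted p = 0.0532), and without control 1 and MT 3 together (adjusted p = 0.0502).

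Not every wall list moved this way. Of 21 xyloglucan endotransglucosylases, which remodel the growing wall, none was called by limma, with 9 at an unadjusted p under 0.05, and 11 were higher and 10 lower in MT on average. Among 78 pectin enzymes 3 fell and 1 rose, and 2 fell and none rose without control 2, control 3, MT 1 or MT 2. Most of this list was nonetheless lower in MT on average, with 65 genes lower and 13 higher (median log2 -0.26). Both called COBRA genes, of a family that orients cellulose deposition, were chosen after their values were seen. Glyma.06G205400 stood at 1.99, 2.34 and 3.23 FPKM in MT and at 7.22, 8.35 and 8.11 FPKM in the control (log2 -1.35, SE 0.23, adjusted p = 0.00691), and Glyma.04G160100 fell by 1.21 (adjusted p = 0.00284). Among enzymes of xylan and its UDP-sugar precursors, also looked up after values were seen, 9 of 42 fell, but the count was 0 without control 2, without control 3 and without MT 1, 1 without MT 2, 3 without MT 3, and 5 without control 1 and MT 3 together. The transcription factor gene MYB61, Glyma.10G142200, a regulator of xylem wall formation in Arabidopsis, had 0.725, 0.956 and 0.579 FPKM in MT and 3.23, 2.69 and 2.63 FPKM in the control. Its call (log2 -1.14, SE 0.21, adjusted p = 0.011) was narrowly lost without MT 1 (adjusted p = 0.0503) and without control 1 and MT 3 together (adjusted p = 0.0645). Expansin-A1, Glyma.02G109100, a wall-loosening protein, had 8.17, 5.71 and 12.4 FPKM in MT and 42.8, 40.6 and 49.6 FPKM in the control. Its log2 difference of -2.27 (SE 0.51, adjusted p = 0.0327) rested on a gene that varied widely in the other groups, and it was called in none of the fits without 1 MT or control library, where its adjusted p was 0.0565 to 0.123. The germin-like protein 17 gene Glyma.10G139800 (3.65, 6.01 and 3.33 FPKM in MT, against 13.3, 19.4 and 21.6 FPKM in the control, log2 -1.85, adjusted p = 0.0121) lost its call without control 2, control 3, MT 1 or MT 3, where its adjusted p was 0.0523 to 0.0657.

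The marker list of xylem and secondary wall, which shares the laccases and several fasciclin-like genes with the families above, fell in 11 of 40 tested members. The count was 5 without control 2, 4 without control 3 and 4 without MT 1. Its summed level was 69.1, 103 and 86.3 FPKM in MT and 178, 251 and 293 FPKM in the control, so the groups did not overlap. The phloem list had 0 of 7 members called by limma and 0 at an unadjusted p under 0.05, and summed to between 43.7 and 59.4 FPKM in MT and between 44.7 and 61.4 FPKM in the control. In whole leaves, fewer cells of a type and less RNA per cell cannot be told apart, and the part of the xylem markers in the fall of the wall genes was not tested.

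The cuticle is the layer of cutin and wax on the epidermis. In the list of wax, cutin and very-long-chain fatty acids 8 of 69 genes fell, 1 rose and 60 did not pass the test (median log2 -0.25), and the count of 9 was 5 without control 2, 5 without control 3 and 5 without MT 2. The acyltransferase GPAT6 makes cutin monomers, and Glyma.07G146800 stood at 29.9, 27.1 and 30.2 FPKM in MT and at 58.3, 68.6 and 60.0 FPKM in the control (log2 -1.07, SE 0.12, adjusted p = 0.000412). A second GPAT6 gene, Glyma.18G197800, fell by 1.23 (SE 0.17, adjusted p = 0.00172). KCS6, Glyma.10G274400, which lengthens fatty acids for wax, stood at 22.6, 21.5 and 20.3 FPKM in MT and at 39.8, 46.0 and 44.6 FPKM in the control (log2 -0.98, SE 0.15, adjusted p = 0.00274). In each of these genes the 3 MT libraries lay close together and did not overlap with the control.

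Of GDSL and other lipases, several of which polymerize cutin, 14 of 123 fell and 2 rose, and the count of 16 was 6 without control 2, 6 without control 3, 9 without MT 1 and 9 without MT 2. EXL1, Glyma.17G259600, stood at 12.0, 11.0 and 13.7 FPKM in MT and at 26.6, 33.7 and 31.6 FPKM in the control (log2 -1.25, SE 0.15, adjusted p = 0.000624). Against this direction, the CPRD49 lipase gene Glyma.01G122000, chosen after its values were seen, stood at 9.38, 8.75 and 11.5 FPKM in MT and at 3.38, 4.50 and 5.29 FPKM in the control (log2 1.02, SE 0.18, adjusted p = 0.00665). Fatty acid desaturases fell in 3 of 25 genes. The omega-3 desaturase Glyma.18G062000, which makes linolenic acid, stood at 8.50, 8.41 and 11.0 FPKM in MT and at 18.8, 27.2 and 25.1 FPKM in the control (log2 -1.25, SE 0.16, adjusted p = 0.000916). The epidermis markers, which share genes with the cuticle list, fell in 8 of 31 tested members (5 without control 2, without control 3 and without MT 2). They summed to 240, 214 and 234 FPKM in MT and 336, 423 and 393 FPKM in the control, and their part in the fall of the cuticle genes was not tested.

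**Figure D4:**
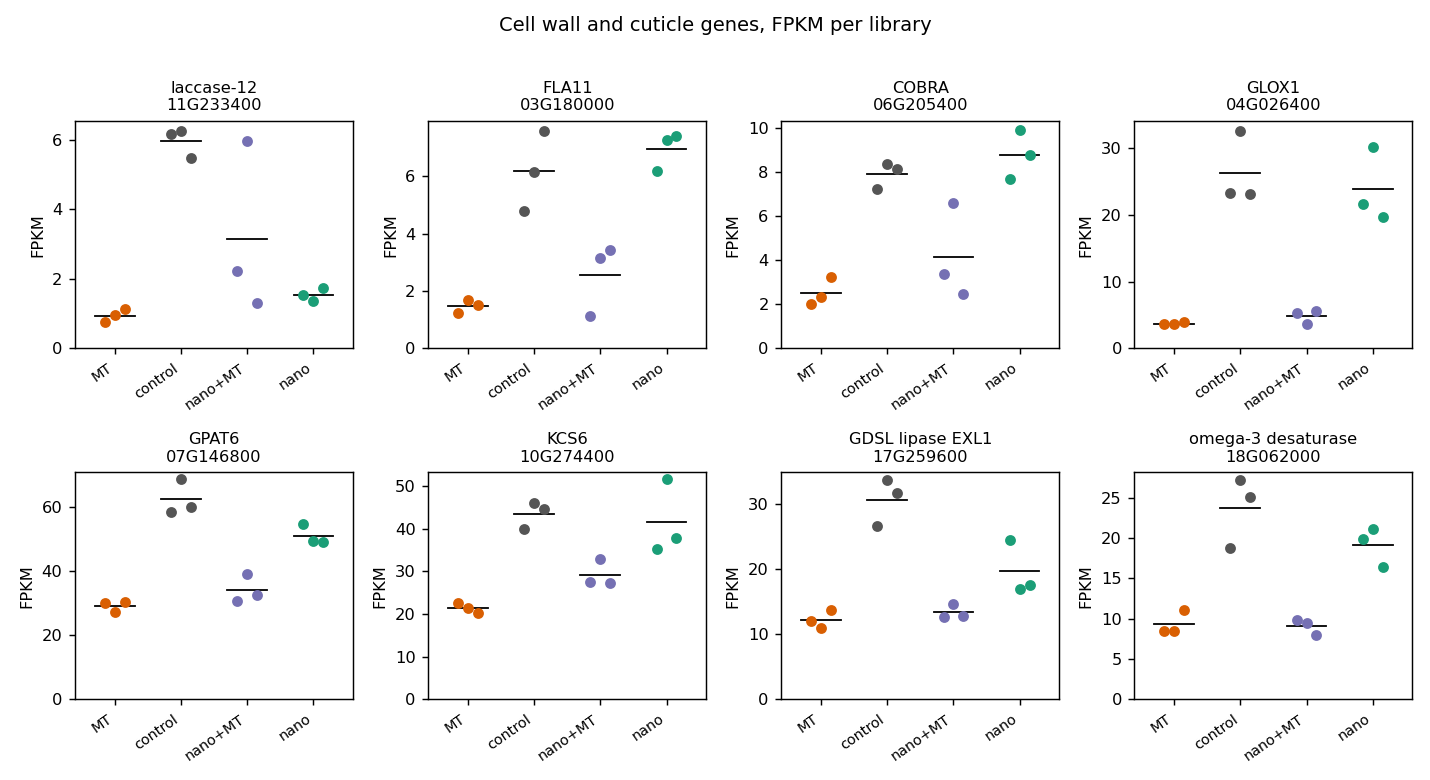
FPKM per library (points) and group mean (line) of 3 wall genes and GLOX1 above and 4 cuticle and lipid genes below, with linear axes from 0 and the groups in the order MT, control, nano-SiO2+MT and nano-SiO2. In every panel the 3 MT libraries lie below the 3 control libraries, and GLOX1 is low in both groups with melatonin (3.61 to 3.90 FPKM in MT, 23.1 to 32.6 FPKM in the control).

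One of the largest falls was GLOX1, Glyma.04G026400, an oxidase named for the glyoxal oxidases that give off hydrogen peroxide. It stood at 3.63, 3.61 and 3.90 FPKM in MT, against 23.3, 32.6 and 23.1 FPKM in the control (log2 -2.52, SE 0.18, adjusted p = 6.58e-06).

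Both tested vegetative storage proteins, which hold nitrogen in soybean leaves and are described in the table as stem 31 kDa glycoproteins, rose. Glyma.07G014500 had 31.5, 21.9 and 34.5 FPKM in MT and 4.87, 5.86 and 6.50 FPKM in the control (log2 2.15, SE 0.21, adjusted p = 0.000102). Glyma.08G200100 had 2.21, 1.53 and 4.64 FPKM in MT and 0.124, 0.180 and 0.173 FPKM in the control (log2 1.63, SE 0.25, adjusted p = 0.00358). Protease inhibitors, which slow the digestion of leaf protein by insects, rose in 5 of 24 genes (3 without control 3), and the other 19 did not pass the test. Trypsin inhibitor A, Glyma.01G095232, stood at 37.6, 39.9 and 43.1 FPKM in MT and at 12.6, 14.7 and 10.3 FPKM in the control (log2 1.62, SE 0.20, adjusted p = 0.000734). The Kunitz inhibitors Glyma.08G341700 and Glyma.08G341600 rose by 1.26 and 1.24 on the log2 scale (adjusted p = 0.00473 and 0.00592). The 4 called members of the seed and pod list (of 10 tested) are all among these inhibitors, and the list summed to 210, 190 and 204 FPKM in MT and 142, 139 and 121 FPKM in the control. Among 80 genes of pathogenesis-related proteins, chitinases and glucanases, which act in defence, 3 rose and 4 fell (median log2 -0.15). The count of 7 was 1 without control 1, control 2 or control 3, 2 without MT 1 or MT 3, 4 without MT 2, and 1 without control 1 and MT 3 together.

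Few photosynthetic genes were called. None of the 41 Calvin cycle genes was called by limma (3 at an unadjusted p under 0.05, median log2 -0.0087). The most abundant of them, the Rubisco small chain Glyma.19G046800, had 14167, 15519 and 10057 FPKM in MT and 18820, 12411 and 11253 FPKM in the control, with overlapping groups. Of 33 antenna genes 3 fell, and 1 did without control 1, control 2, control 3, MT 1 or MT 2. That gene, Glyma.16G165200, stood at 38.6, 33.1 and 37.4 FPKM in MT and at 114, 83.2 and 83.5 FPKM in the control (log2 -1.33, SE 0.23, adjusted p = 0.00766). The carbonic anhydrases of the chloroplast, which hydrate carbon dioxide, were looked up after their values were seen, and 2 of 16 fell. Glyma.05G007100 stood at 1552, 1471 and 1175 FPKM in MT and at 3537, 2789 and 2612 FPKM in the control (log2 -1.09, SE 0.15, adjusted p = 0.00185), and Glyma.19G007700 at 2330, 2076 and 1810 FPKM in MT and 4332, 3562 and 3434 FPKM in the control (log2 -0.87, SE 0.14, adjusted p = 0.00481). Both are among the abundant transcripts of the leaf. In starch synthesis, the large subunit of ADP-glucose pyrophosphorylase, Glyma.11G116600, stood at 33.0, 27.8 and 18.8 FPKM in MT and at 6.45, 5.56 and 6.20 FPKM in the control (log2 1.93, SE 0.20, adjusted p = 0.000141). In sucrose synthesis, the sucrose-phosphate synthase Glyma.06G323700 stood at 37.5, 29.6 and 29.5 FPKM in MT and at 10.3, 14.4 and 14.997 FPKM in the control (log2 1.23, SE 0.18, adjusted p = 0.00214).

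Among regulators and hormone genes, ERF transcription factors rose in 9 of 83 genes and fell in 3, and the count of 12 was 6 without control 2, 7 without control 3, 6 without MT 1 and 6 without MT 2. The ERF gene Glyma.20G070100 stood at 29.8, 22.5 and 28.5 FPKM in MT and at 8.74, 9.27 and 9.32 FPKM in the control (log2 1.46, SE 0.17, adjusted p = 0.000521). MYB139, Glyma.13G333200, stood at 47.5, 54.5 and 66.1 FPKM in MT and at 10.6, 15.3 and 16.5 FPKM in the control (log2 1.92, SE 0.20, adjusted p = 0.000159). Of 34 gibberellin genes 2 rose and 2 fell (median log2 0.0015), with 2 called without control 1, control 3, MT 1 or MT 2. Gibberellin 20-oxidase, Glyma.02G136000, which makes precursors of active gibberellin, stood at 6.25, 6.02 and 6.90 FPKM in MT and at 2.30, 2.18 and 1.84 FPKM in the control (log2 1.25, SE 0.13, adjusted p = 0.000186). Of the gibberellin 2-beta-dioxygenases, which inactivate the hormone, Glyma.12G213700 rose by 0.86 (adjusted p = 0.00665). Glyma.13G287600 fell by 1.48 (adjusted p = 0.0185), a call lost without control 1, control 3, MT 1 or MT 2. SMAX1-LIKE 6, Glyma.18G062300, of a family of strigolactone-signalling repressors and chosen after its values were seen, stood at 3.84, 4.03 and 3.89 FPKM in MT and at 9.73, 10.4 and 10.5 FPKM in the control (log2 -1.19, SE 0.12, adjusted p = 0.00012). Chalcone synthase 2, Glyma.06G118550, the entry enzyme of flavonoid synthesis, fell by 1.01 (SE 0.14, adjusted p = 0.00172). Heat shock proteins fell in 7 of 74 genes and rose in 1, the small heat shock protein of the peroxisome Glyma.02G244300 (log2 1.20, SE 0.17, adjusted p = 0.00202). The count of 8 was 3 without control 2, 1 without control 3, 3 without MT 1, 3 without MT 2, 4 without MT 3, and 5 without control 1 and MT 3 together.

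The groups with nano-SiO2 gave a second measure of melatonin in libraries that neither MT nor the control shares. Between nano-SiO2+MT and nano-SiO2, 432 genes were called (1.53% of the tested genes), 87 higher (0.308%) and 345 lower (1.22%), with a median log2 difference of -0.148 over all genes. With median-ratio scaling the split was 142 higher and 174 lower, and with quantile normalization 138 and 169. The count was 174 without nano-SiO2 1, 103 without nano-SiO2 2, 104 without nano-SiO2+MT 1, 189 without nano-SiO2+MT 2, 221 without control 2, 260 without control 3, 267 without MT 1, and 742 without control 1 and MT 3 together. Of the 948 genes called in MT against the control, 741 (78.2%) had the same sign with nano-SiO2, against 63.5% of all tested genes. The share was 88.7% of those that fell and 67.4% of those that rose, where 25.4% of all genes were positive with nano-SiO2. Called the same way in both were 125 genes, 44 higher and 81 lower, which is 13.2% of the calls without and 28.9% of the calls with nano-SiO2. A further 27 genes were called in opposite directions.

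Part of the nitrogen genes were called the same way. Glyma.02G228100 differed by 3.91 (SE 0.23, adjusted p = 8.03e-06) between nano-SiO2+MT and nano-SiO2, nitrate reductase Glyma.02G132100 by 1.23 (SE 0.12, adjusted p = 0.000367) and LBD38 Glyma.11G049300 by 1.27 (SE 0.14, adjusted p = 0.000937). All 3 called asparagine synthetases were called again, and all 5 called genes of nitrate and nitrite reduction had the same sign, 4 of them called. Of the 8 called nitrate-response regulators, 7 had the same sign but only LBD38 was called. LBD41 (Glyma.18G297100), HHO3 (Glyma.10G204200), the hemoglobin gene Glyma.11G121700 and CLC-b (Glyma.16G057600) did not pass, with adjusted p-values of 0.131, 0.109, 0.136 and 0.0561. The other hemoglobin gene, Glyma.11G121800, was called higher again (log2 0.87, SE 0.15, adjusted p = 0.015). So was the other CLC-b gene, Glyma.19G089800 (log2 0.75, SE 0.17, adjusted p = 0.0463). The asparaginase Glyma.17G238200 differed by 0.15 (adjusted p = 0.583), against its fall in MT. All 12 called fasciclin-like genes were again lower, 6 of them called, and GLOX1, Glyma.04G026400, fell by 2.08 (SE 0.18, adjusted p = 0.000367). All 9 called genes of the wax and cutin list kept their sign, 1 of them called. Of the 6 called laccases 4 were again lower, 1 of them called. The other 2, laccase-12 (Glyma.11G233400) and laccase-17 (Glyma.07G134100), differed the other way, by 0.55 and 0.22 (adjusted p = 0.324 and 0.56). MYB61 (Glyma.10G142200) differed by 0.05 (adjusted p = 0.904), against its fall in MT.

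Ferritins and iron superoxide dismutases went the other way. Ferritin-2, Glyma.01G124500, stood at 44.3, 48.5 and 43.8 FPKM in nano-SiO2+MT and at 16.1, 14.6 and 20.0 FPKM in nano-SiO2, a rise of 1.39 (SE 0.15, adjusted p = 0.000856). The iron superoxide dismutase Glyma.20G196900 stood at 5.27, 2.52 and 4.68 FPKM in nano-SiO2+MT and at 26.02, 20.7 and 24.6 FPKM in nano-SiO2, a fall of 2.30 (SE 0.21, adjusted p = 0.000367). For both genes nano-SiO2 alone thus lay nearer to MT than to the control. The interaction, which is the melatonin difference with nano-SiO2 minus that without it, was 4.58 for Glyma.01G124500 (SE 0.21, adjusted p = 1.75e-07) and -6.86 for Glyma.20G196900 (SE 0.29, adjusted p = 1.48e-07). It was called in all 5 called ferritins and in 148 of all tested genes (0.524%), and the count was 88 without control 2 and 72 without control 1 and MT 3 together. Among the 948 genes, 116 had a called interaction (91 that rose and 25 that fell), 99 of them with the opposite sign with nano-SiO2. In the other 17 the difference was smaller with nano-SiO2. It was smaller in absolute size in 873 of the 948 genes (92.1%). The 948 genes were selected by the MT difference, which the interaction subtracts. Smaller or opposite differences with nano-SiO2 were thus favoured by the selection.

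**Figure D5:**
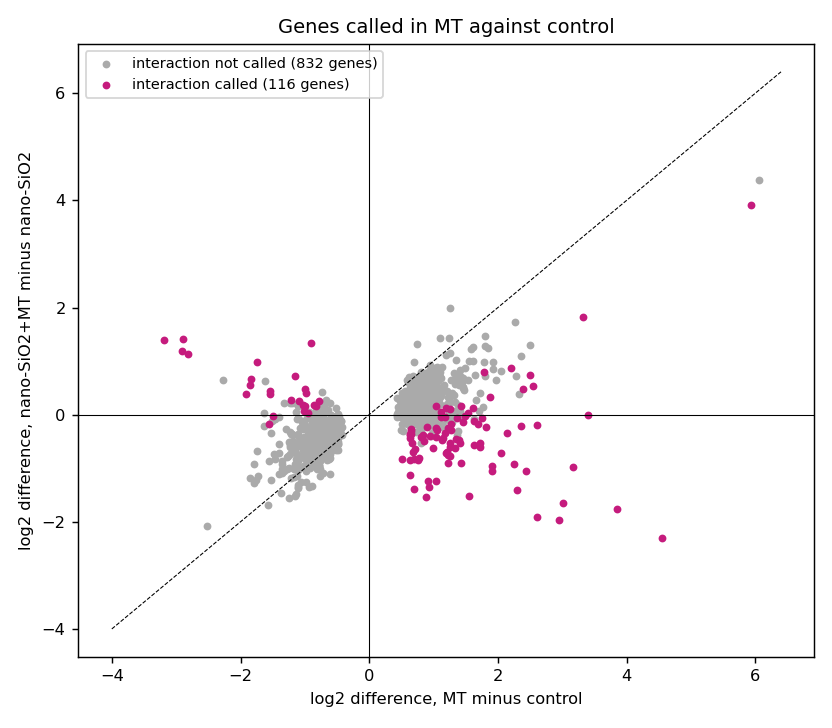
Each point is 1 of the 948 genes called in MT against the control, with its log2 difference MT minus control on the horizontal axis and nano-SiO2+MT minus nano-SiO2 on the vertical axis. The 116 genes with a called interaction are coloured, and the dashed line marks equal differences. Ferritins lie at the upper left and the iron superoxide dismutases at the lower right, while the asparagine synthetases lie at the upper right.

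Set against nano-SiO2 alone, MT differed in 893 genes (3.16%), 212 higher and 681 lower, with a median log2 difference of -0.143 over all genes. The split was 356 higher and 312 lower with median-ratio scaling. The count was 227 without MT 1, 285 without MT 2, 490 without control 2, 588 without control 3, 305 without nano-SiO2 2 and 453 without nano-SiO2 3. Asparagine synthetase Glyma.02G228100 was 4.72 higher in MT on the log2 scale (adjusted p = 5.81e-07), whereas the vegetative storage protein Glyma.07G014500 was 2.30 lower (adjusted p = 0.000103). In nano-SiO2 libraries this storage protein stood at 179, 109 and 156 FPKM. Of the 948 genes called in MT against the control, 383 were also called against nano-SiO2. In MT 149 were higher in both comparisons, 229 lower in both, and 5 went opposite ways. Both comparisons share the MT libraries. Nramp6 (Glyma.15G003500), antenna gene Glyma.16G165200, laccase-12 (Glyma.11G233400) and gibberellin 20-oxidase (Glyma.02G136000) did not pass against nano-SiO2 (adjusted p = 0.99, 0.728, 0.443 and 0.376).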

How the data were processed

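Polyadenylated leaf RNA was sequenced in 12 libraries, 3 per group, per the labels' protocols. Per the file headers, the authors deposited FPKM for every gene in every library. They also deposited a p-value column and a q-value column whose comparison is unnamed, and these were not used in any test: the authors' deposited table has 1537 genes with a q-value under 0.05. No source used here names the aligner, the counting tool or the use of strand. DESeq2 1.34.0 and R 4.1.2 are named in the submitters' processing notes. Identifiers belong to the Williams 82 annotation that the table names, and none matched the RefSeq table (0 of 59048 genes), so no coordinates or sequences are given.

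The test, on log2(FPKM + 1), took genes that reached 1 FPKM in 3 or more libraries. The added 1 understates the differences of low genes. All 12 libraries entered 1 linear model with 4 group means (limma 3.58.1 in R 4.3.3, lmFit, eBayes with trend and robust settings), p-values were two-sided and adjusted by the Benjamini-Hochberg method, and calls were made at 0.05. The workflow was tested on simulated data. Absolute depth is unknown, and with it the counting error. All libraries carry the same batch label.

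Families and marker lists were defined by words in the descriptions. Members and lists were chosen with earlier results of these data known, and 12 further lists were added after the values were seen. Genes were named by rule: first, the 10 called genes that rose most and the 10 that fell most, if the groups did not overlap and the higher one averaged 5 FPKM or more. Up to 4 called members per list followed, or, in lists without calls, the gene with the highest level. The text gives part of them and says which others were added. Alternatives were another pseudocount (0.1), other filters, median-ratio and quantile scaling, a replicate block, and leaving out libraries.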

Additional observations from a re-analysis of the deposited data

Results flagged for a closer look

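The melatonin difference itself differed between leaves with and without nano-SiO2 in 148 genes by limma's interaction test (adjusted p under 0.05), and the genes of the text among them are listed here by their interaction, positive where the log2 difference was higher with nano-SiO2. For ferritins it was 4.58 (Glyma.01G124500), 4.10 (Glyma.18G205800), 4.31 (Glyma.03G050100), 3.95 (Glyma.07G155200) and 1.47 (Glyma.14G056800). For superoxide dismutases it was -6.86 (Glyma.20G196900) and -4.52 (Glyma.10G193500) in the iron form, 1.49 in the copper/zinc form (Glyma.11G192700) and 2.30 in its chaperone (Glyma.05G055000). Metal transporters had -2.95 (DMT1, Glyma.17G165200), -1.97 (Nramp6, Glyma.15G003500), 1.40 (Glyma.16G168200) and 0.98 (YSL1, Glyma.20G217400).

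The phosphate genes that rose in MT did not pass the test with nano-SiO2, and their interactions were -2.57 (PAP17, Glyma.08G056400), -2.32 (ACP1, Glyma.08G195100), -1.51 (Glyma.12G013200), -1.86 (GDPD1, Glyma.16G052000) and -1.16 (PAH2, Glyma.17G242900). Of the nitrogen genes, the asparagine synthetases Glyma.02G228100 and Glyma.11G171400 had -2.01 and -1.51, hemoglobin 1 (Glyma.11G121800) -1.33, and the asparaginase Glyma.17G238200 1.15. The vegetative storage proteins had -2.48 (Glyma.07G014500) and -2.20 (Glyma.08G200100). Others were RESPONSE TO LOW SULFUR 3 (Glyma.04G225500, -1.21), laccase-12 (Glyma.11G233400, 2.40), the carbonic anhydrases (Glyma.05G007100, 1.34, and Glyma.19G007700, 1.05), sucrose-phosphate synthase (Glyma.06G323700, -1.49), chalcone synthase 2 (Glyma.06G118550, 1.08) and gibberellin 20-oxidase (Glyma.02G136000, -1.85).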

How the results depend on the processing

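With 3 libraries a group and depth unknown, the number of calls depends on single libraries. In MT against the control (948), 603 were left among genes averaging 5 FPKM or more and 296 when the log2 difference also had to reach 1 in size, and the count ranged from 350 to 1098 when 1 library was left out. Between nano-SiO2+MT and nano-SiO2 (432), it was 229 without a filter, 273 among genes averaging 5 FPKM or more, 742 without control 1 and MT 3, and 103 to 535 without 1 library. The interaction (148) was called in 82 genes among those averaging 5 FPKM or more, 72 without control 1 and MT 3, and 88 to 213 without 1 library. In MT against nano-SiO2 (893), run under these alternatives after the data were seen, the count was 521 without a filter, 446 among genes averaging 5 FPKM or more, and 227 to 977 without 1 library. If the replicate numbers pair the libraries was left unsettled. The deviations of same-numbered MT and control libraries correlated at 0.16, -0.34 and 0.527, against at most -0.03, 0.528 and 0.315 for other numbers. In nano-SiO2+MT and nano-SiO2 the same numbers gave 0.441, -0.218 and 0.0759, against at most 0.122, 0.285 and 0.114. With a replicate block the counts were 1169 for MT against the control, 789 with nano-SiO2, 165 for the interaction and 1578 for MT against nano-SiO2. Among genes named in the text with a call, those followed singly through the alternatives kept their sign in every fit that tested them. Not followed through all alternatives were the abundant L-asparaginase, the gibberellin-inactivating dioxygenases and the named genes without a functional name.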
